A study of Mus musculus with 7 samples.

Results

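Absorbed dietary fat leaves the intestine in chylomicrons, lipoprotein particles built inside the enterocyte, and 10 genes of this route were followed here through sorted mouse crypt cells. They were found by the listed symbols among the gene names deposited with the TPM values and read by Ensembl identifier from the count table, and all 10 were present among its 37310 genes and among the 14626 genes tested. The cells came from BmicreERT2, Rosa26RFP mice aged 3 months, in which a Cre recombinase under Bmi1 control switches on a red fluorescent protein. All mice carried both alleles, so the reporter is common to every group, and it marks cells that used Bmi1 as well as descendants of such cells. Crypts were dispersed and strongly red, Epcam-positive, CD45-negative cells were sorted and sequenced in bulk. Mice ate a purified diet from weaning, giving 2 libraries for AIN76A (both male), 3 for NWD1 (replicate 2 female, the others male) and 2 for NWD2 (both male). As background on the names, AIN76A is a control diet, NWD1 a Western-style diet rich in fat and poor in vitamin D3, calcium and donors of methyl groups, and NWD2 is its version with more vitamin D3 and calcium. The labels do not say whether libraries came from separate animals, so p-values measure the spread between these libraries, which may be technical.

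As background, fatty acids and monoglycerides that enter the enterocyte are carried by small cytosolic binding proteins to the endoplasmic reticulum and rejoined into triglyceride there. The microsomal transfer protein Mttp loads this lipid onto apolipoprotein B, which forms the backbone of the particle, and the apolipoproteins of the A and C families join its surface. Most of these genes are characteristic of mature absorptive cells of the villus, above the crypts from which the cells were taken.

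The promoters of 5 of the genes are shown because their levels varied together in 2 sets, Fabp1 with Fabp2 and Rbp2, and Apob with Mttp, across the 7 libraries. RefSeq sequences on GRCm38.p6 were matched by symbol for 7 of the 10 genes, and each runs 5′ to 3′ on the gene's strand from 250 bases before the annotated start to 50 bases after it. The windows are chr6:71199629-71199928 (plus strand) for Fabp1, chr3:122894822-122895121 (plus) for Fabp2, chr9:98490287-98490586 (plus) for Rbp2, chr12:7977427-7977726 (plus) for Apob and chr3:138143369-138143668 (minus) for Mttp. Capitals mark CAAAGT and CAAAGG, core letters of sites for the enterocyte factor Hnf4a, and the TATAAA box, each on either strand.
Fabp1: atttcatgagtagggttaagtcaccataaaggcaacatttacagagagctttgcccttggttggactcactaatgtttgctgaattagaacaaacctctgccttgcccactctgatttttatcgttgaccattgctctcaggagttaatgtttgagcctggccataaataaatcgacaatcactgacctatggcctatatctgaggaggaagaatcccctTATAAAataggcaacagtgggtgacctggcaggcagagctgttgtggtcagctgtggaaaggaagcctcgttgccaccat
Fabp2: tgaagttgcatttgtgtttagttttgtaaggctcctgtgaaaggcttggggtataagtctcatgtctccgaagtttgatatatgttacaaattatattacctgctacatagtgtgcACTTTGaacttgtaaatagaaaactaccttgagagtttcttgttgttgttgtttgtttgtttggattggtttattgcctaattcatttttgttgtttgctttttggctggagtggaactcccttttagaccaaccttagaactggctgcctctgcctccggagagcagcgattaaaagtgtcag
Rbp2: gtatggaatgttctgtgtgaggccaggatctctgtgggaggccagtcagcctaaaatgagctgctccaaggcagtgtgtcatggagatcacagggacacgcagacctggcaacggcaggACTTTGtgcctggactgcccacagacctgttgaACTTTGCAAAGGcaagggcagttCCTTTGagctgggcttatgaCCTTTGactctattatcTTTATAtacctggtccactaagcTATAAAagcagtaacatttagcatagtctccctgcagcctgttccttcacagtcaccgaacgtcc
Apob: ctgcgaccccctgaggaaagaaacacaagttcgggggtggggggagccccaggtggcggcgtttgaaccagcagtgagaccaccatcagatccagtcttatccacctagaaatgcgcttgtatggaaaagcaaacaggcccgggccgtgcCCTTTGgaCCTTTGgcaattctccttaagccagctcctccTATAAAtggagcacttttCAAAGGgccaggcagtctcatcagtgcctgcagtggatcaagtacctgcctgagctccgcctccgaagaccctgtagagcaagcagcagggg
Mttp: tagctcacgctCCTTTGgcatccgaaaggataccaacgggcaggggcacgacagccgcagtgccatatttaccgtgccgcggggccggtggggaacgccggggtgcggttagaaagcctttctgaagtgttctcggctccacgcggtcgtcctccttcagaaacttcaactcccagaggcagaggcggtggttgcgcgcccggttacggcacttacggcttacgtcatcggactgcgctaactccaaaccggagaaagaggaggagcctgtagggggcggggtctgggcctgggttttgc
The Rbp2 window held CAAAGT at 2 places and CAAAGG at 3, the Fabp2 window CAAAGT once and the Fabp1 window neither. CAAAGG stood at 3 places in the Apob window and once in that of Mttp. Of all 32851 promoters of this length, 14.4% held CAAAGT and 20.3% CAAAGG, against 3 of the 7 matched members for either. The longer CAAAGTTCA, which contains CAAAGT, was in the windows of Apoa4 and Rbp2 and in 0.390% of all promoters. TATAAA stood in the windows of Apob, Fabp1 and Rbp2 and in 13.6% of all. Matches of letters are a description and not evidence of binding.

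Depth was 14034315 to 77959407 counts per library, NWD1 replicate 3 being the shallowest. The TPM table has a column headed as an NWD2 replicate that no sample is titled after and none for NWD1 replicate 3, which makes the diet of that library less certain. Levels compared between libraries are therefore CPM, the counts of a library brought to a common total and scaled by TMM, a factor that corrects for library composition. NWD2 replicate 2 stood apart, with Epcam at 225 CPM against 510.0 to 1338 elsewhere and the lactase gene Lct at 3384 CPM against 453 to 1160. The i5 sequencing index N503 was on both AIN76A libraries and N504 on both NWD2 libraries, so that index and diet cannot be told apart in that comparison. Only NWD1 carried both, with N504 on replicate 3 alone.

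The sorted cells held abundant RNA of absorptive cells. Together the 10 genes took 36149 to 46502 CPM on AIN76A, 39170 to 60436 on NWD1 and 39186 to 91880 on NWD2. Per length, in the 6 libraries with deposited TPM, Fabp1 ranked 2 of all genes by mean TPM with 35288 ± 11253 (SD, n = 6), and Apoa1 ranked 4 with 19108 ± 5336 (SD, n = 6). Rbp2 followed with 11845 ± 4305 TPM (SD, n = 6), then Fabp2 with 10436 ± 4665 (SD, n = 6) and Apoa4 with 9689 ± 5811 (SD, n = 6). Neighbours among these first 5 overlapped in their ranges. Apoc3 with 2183 ± 840.3 TPM (SD, n = 6) and Mttp with 1973 ± 1043 (SD, n = 6) formed a middle step, below Apoa4 without overlap but overlapping each other. Dgat2 with 521 ± 220 TPM (SD, n = 6), Apob with 476 ± 343 and Dgat1 with 381 ± 153 (SD, n = 6 each) had the lowest means and overlapped each other. Dgat2 and Dgat1 lay below Mttp without overlap, while the highest Apob value, 1089 TPM in NWD2 replicate 2, exceeded the lowest of Mttp, 982 TPM in AIN76A replicate 1. The order of Fabp1 over Apoa1 held in 5 of 6 libraries and that of Apob over Dgat1 in 2 of 6.

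The label of the cells was checked against lists of marker genes. The 9 markers of crypt base and reserve stem cells summed to 411 to 1239 CPM, of which Olfm4 alone was 273 to 1024 CPM. Bmi1 itself was at 2.12 to 5.25 CPM. The 20 absorptive enterocyte markers summed to 20195 to 45652 CPM. The 7 Paneth cell markers summed to 10961 to 40110 CPM, above the enterocyte markers in both AIN76A libraries and below them in all others. The lists differ in length and their genes in level, so these sums do not give shares of cells. Alpi, the brush-border alkaline phosphatase of mature enterocytes, was at 2096 to 4716 CPM. The liver also makes these apolipoproteins. Albumin (Alb), its defining product, was at 0.37 to 3.80 CPM, and the 5 hepatocyte markers summed to 10.03 to 31.2 CPM. The 10 leukocyte markers summed to 5.44 to 18.9 CPM.

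**Figure D1:**
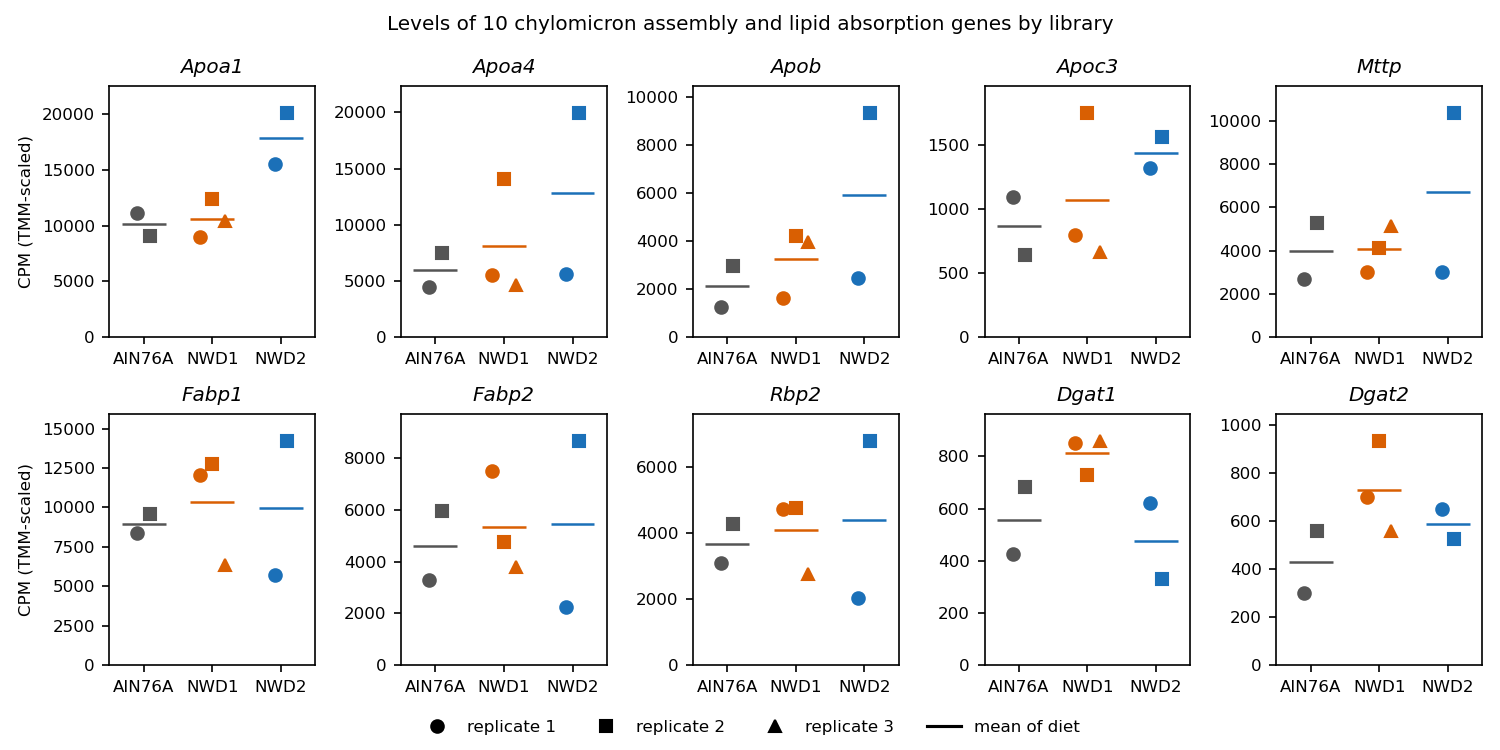
Level of each gene in CPM (TMM-scaled, linear axis from 0) by diet, a point per library with its replicate number as the symbol and a line at the mean of the diet. Apoa1 in both NWD2 libraries lies above the other 5 libraries, and NWD2 replicate 2 is the highest library in 7 of the 10 panels. The share of all genes with the Apoa1 pattern was not computed.

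The lipid-binding proteins carry the absorbed molecules through the cytosol and belong to the same protein family. Fabp1 (ENSMUSG00000054422.7), the fatty acid binding protein shared with liver, had 8381 and 9560 CPM on AIN76A, 12031, 12756 and 6332 CPM on NWD1, and 5711 and 14239 CPM on NWD2. NWD2 thus held both the lowest and the highest library, and all diets overlapped. Fabp2 (ENSMUSG00000023057.5), the intestinal fatty acid binding protein, had 3294 and 5949 CPM on AIN76A, 7495, 4757 and 3800 CPM on NWD1, and 2234 and 8681 CPM on NWD2. Its NWD2 libraries likewise enclosed all the others. Rbp2 (ENSMUSG00000032454.3), which binds retinol for packaging into chylomicrons as retinyl ester, had 3105 and 4266 CPM on AIN76A, 4725, 4761 and 2765 CPM on NWD1, and 2019 and 6812 CPM on NWD2. The NWD2 libraries differed 2.49-fold in Fabp1, 3.89-fold in Fabp2 and 3.37-fold in Rbp2. Against AIN76A the log2 fold changes with NWD2 were 0.15 (SE 0.51), 0.24 (SE 0.62) and 0.26 (SE 0.55), with edgeR adjusted p = 0.996 for each. With NWD1 they were 0.21 (SE 0.47), 0.21 (SE 0.57) and 0.15 (SE 0.50), with edgeR adjusted p of 0.941 to 0.962. Between NWD2 and NWD1 they lay between -0.06 and 0.11. The intervals were wide: for Fabp2 with NWD2 against AIN76A the 95% interval ran from -1.15 to 1.63 on the log2 scale. Without NWD2 replicate 2 the NWD2 against AIN76A values of Fabp1, Fabp2 and Rbp2 were -0.65, -1.04 and -0.86.

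The last step of triglyceride synthesis is made by the acyltransferases Dgat1 and Dgat2, which are unrelated enzymes with the same reaction. Dgat1 (ENSMUSG00000022555.5) had 425 and 684 CPM on AIN76A, 853, 730 and 860.2 CPM on NWD1, and 621 and 329 CPM on NWD2. All NWD1 libraries lay above all libraries of either other diet, which overlapped each other. Of all genes tested, 11.4% were higher without overlap with NWD1 against AIN76A and 14.5% lower with NWD2 against NWD1. How many were both was not computed. Its log2 fold change was 0.55 (SE 0.36; edgeR adjusted p = 0.878) with NWD1 against AIN76A and -0.78 (SE 0.36; edgeR adjusted p = 0.651) with NWD2 against NWD1. The first value was 0.24 without AIN76A replicate 1 and 0.94 without AIN76A replicate 2, and the second -0.38 without NWD2 replicate 2 and -1.34 without NWD2 replicate 1. Without NWD1 replicate 3 they were 0.51 and -0.74. Dgat2 (ENSMUSG00000030747.4) had 301 and 558 CPM on AIN76A, 700.1, 936 and 560 CPM on NWD1, and 651 and 526 CPM on NWD2. The NWD1 libraries were again above both AIN76A libraries, although NWD1 replicate 3 exceeded AIN76A replicate 2 by only about 2 CPM, and NWD2 overlapped both. Its log2 fold change was 0.77 (SE 0.36; edgeR adjusted p = 0.878) with NWD1 against AIN76A, with a 95% interval of -0.04 to 1.58. That value was 0.38 without AIN76A replicate 1 and 1.28 without AIN76A replicate 2. Neither gene passed. Neither was highest in NWD2 replicate 2, the library with the highest value of 7 of the other genes, and Dgat1 had its lowest value there.

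The core of the particle is laid down by Mttp and Apob. Apob (ENSMUSG00000020609.8), the structural apolipoprotein, had 1248 and 2978 CPM on AIN76A, 1617, 4209 and 3958 CPM on NWD1, and 2463 and 9323 CPM on NWD2. Its 7.47-fold range from lowest to highest library was the widest of the 10 genes, and the diets overlapped. It also had the highest point estimate, a log2 fold change of 1.48 (SE 0.70; edgeR adjusted p = 0.996) with NWD2 against AIN76A, with a 95% interval of -0.10 to 3.06. That value was 0.22 without NWD2 replicate 2 and 2.25 without AIN76A replicate 2, and with no filter on low counts it was 1.504 and passed (edgeR adjusted p = 0.0287). Mttp (ENSMUSG00000028158.8), the transfer protein, had 2714 and 5302 CPM on AIN76A, 3001, 4148 and 5132 CPM on NWD1, and 3018 and 10376 CPM on NWD2. Only NWD2 replicate 2 lay outside the AIN76A range. The log2 fold change of Mttp was 0.03 (SE 0.53; edgeR adjusted p = 0.994) with NWD1 and 0.74 (SE 0.58; edgeR adjusted p = 0.996) with NWD2, each against AIN76A. Without NWD2 replicate 2 the latter was -0.41.

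The surface apolipoproteins Apoa1, Apoc3 and Apoa4 are direct neighbours in that order in the RefSeq annotation, on chromosome 9. Apoa1 (ENSMUSG00000032083.8), the main protein of high-density lipoprotein and also a chylomicron protein, had 11091 and 9102 CPM on AIN76A, 8953, 12344 and 10437 CPM on NWD1, and 15529 and 20087 CPM on NWD2. Both NWD2 libraries exceeded all 5 others. Of all genes tested, 13.2% were higher without overlap with NWD2 against AIN76A and 10.8% with NWD2 against NWD1. The share that was both was not computed. The mean was 10097 ± 1407 CPM (SD, n = 2) on AIN76A, 10578 ± 1700 CPM (SD, n = 3) on NWD1 and 17808 ± 3223 CPM (SD, n = 2) on NWD2. The log2 fold change of Apoa1 with NWD2 was 0.82 (SE 0.37; edgeR unadjusted p = 0.0510, adjusted p = 0.996) against AIN76A and 0.75 (SE 0.33; edgeR unadjusted p = 0.0466, adjusted p = 0.625) against NWD1, so it did not pass. Leaving out each library in turn gave 0.63 to 0.97 against AIN76A and 0.56 to 0.89 against NWD1, the lowest in each case without NWD2 replicate 2. Against AIN76A with NWD1 it was 0.07 (SE 0.33), with a 95% interval of -0.68 to 0.81.

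Apoc3 (ENSMUSG00000032081.3), an inhibitor of lipoprotein lipase, had 1093 and 638 CPM on AIN76A, 797, 1749 and 664 CPM on NWD1, and 1317 and 1560 CPM on NWD2. Both NWD2 libraries were above both AIN76A libraries but within the NWD1 range. Its log2 fold change with NWD2 against AIN76A was 0.73 (SE 0.49; edgeR adjusted p = 0.996). Without AIN76A replicate 1 it was 1.17 and without AIN76A replicate 2 it was 0.40. Apoa4 (ENSMUSG00000032080.6), an apolipoprotein secreted with chylomicrons after fat intake, had 4497 and 7466 CPM on AIN76A, 5563, 14046 and 4662 CPM on NWD1, and 5623 and 19947 CPM on NWD2. NWD1 replicate 2, the female library, and NWD2 replicate 2 stood well above the other 5 libraries, which lay between 4497 and 7466 CPM. The log2 fold change of Apoa4 was 0.44 (SE 0.63; edgeR adjusted p = 0.919) with NWD1 and 1.096 (SE 0.69; edgeR adjusted p = 0.996) with NWD2 against AIN76A. Those values were -0.22 without NWD1 replicate 2 and -0.09 without NWD2 replicate 2.

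**Figure D2:**
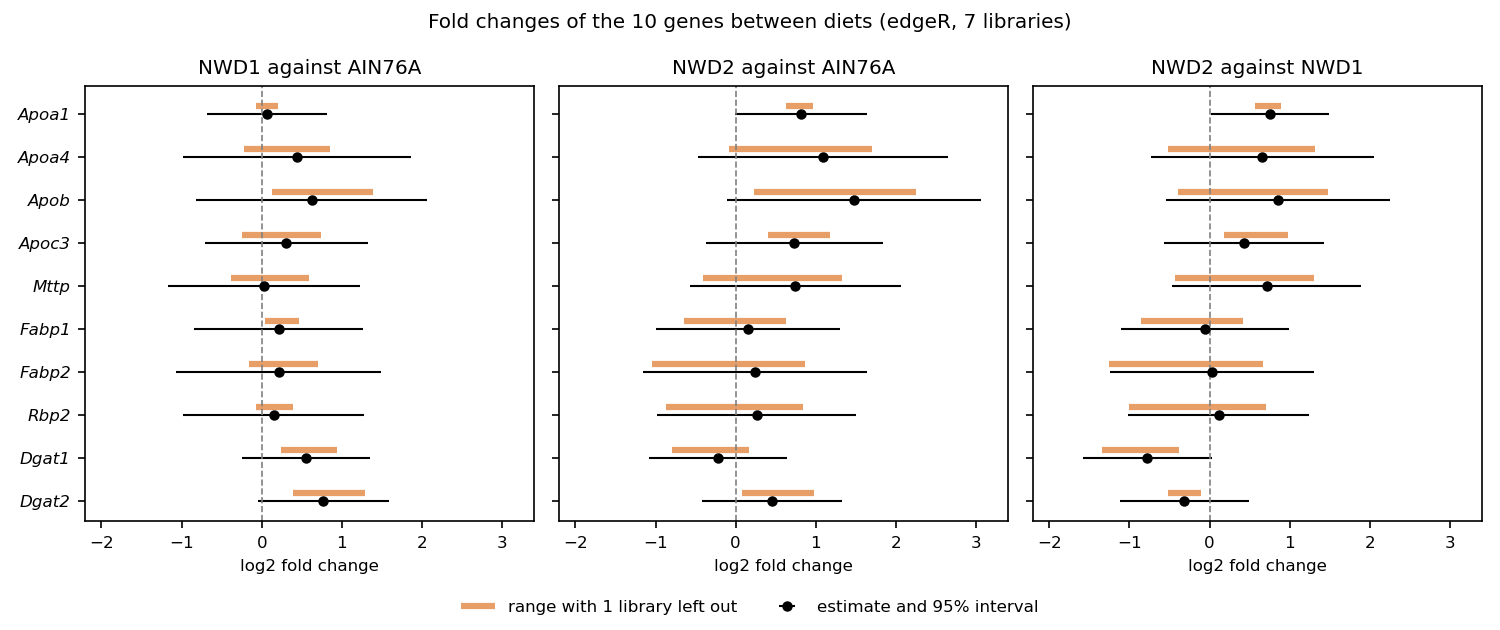
Log2 fold change of each gene in the 3 comparisons of diets, with the edgeR estimate (point) and its 95% interval (black line) from all 7 libraries, and above it the range of the estimate when 1 library is left out (orange). The interval excludes 0 only for Apoa1 with NWD2 against NWD1, before adjustment, while the orange ranges of Fabp1, Fabp2, Rbp2, Mttp and Apoa4 cross 0 in both NWD2 panels.

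NWD1 was set against AIN76A to ask how cells differed on the Western-style diet. None of the 10 genes passed the quasi-likelihood test of edgeR after Benjamini-Hochberg adjustment (0 of 10, against 0% of all genes tested), and 0 had an unadjusted p under 0.05, against 3.42% of all. All 10 log2 fold changes were positive, from 0.03 to 0.77, against 50.6% of all genes, with a median of 0.26 against 0.01 over all genes. Dgat1 and Dgat2 were higher without overlap, 2 of 10 against 11.4% of all genes, and 0 were lower without overlap, against 8.61%. The count of positive values was 7 without NWD1 replicate 2 and 7 without AIN76A replicate 1, and the median was 0.03 and 0.12. Leaving out AIN76A replicate 2 gave a median of 0.65, and leaving out NWD1 replicate 3 one of 0.46. On the TPM scale, which lacks NWD1 replicate 3, the median was 0.64.

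NWD2 was set against AIN76A to ask how they differed on the Western-style diet with more vitamin D3 and calcium. None of the 10 passed by edgeR (0 of 10, against 0% of all genes), and 0 had an unadjusted p under 0.05, against 3.83%. Of the 10, 9 had positive log2 fold changes, against 47.4% of all genes, with a median of 0.59 against -0.03 over all. The exception was Dgat1 at -0.22 (SE 0.38). Apoa1 and Apoc3 were higher without overlap, 2 of 10 against 13.2% of all genes, and 0 were lower without overlap, against 13.2%. These figures rested on NWD2 replicate 2: without it 5 of 10 were positive and the median was 0.04. The genes still positive were Apoa1, Apoc3, Apob, Dgat1 and Dgat2. The median was 0.21 without AIN76A replicate 1.

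NWD2 was set against NWD1 to ask about these additions. The libraries differed as well in sex, NWD1 replicate 2 being female, and in i5 index. NWD1 replicates 1 and 2 carried N503 and both NWD2 libraries N504. None of the 10 passed by edgeR (0 of 10, against 0% of all genes), and Apoa1 alone had an unadjusted p under 0.05, 1 of 10 against 7.89% of all genes. Of the 10, 7 had positive values, against 53.5% of all genes, with a median of 0.27 against 0.05 over all. Apoa1 was higher without overlap, 1 of 10 against 10.8%, and Dgat1 lower without overlap, 1 of 10 against 14.5%. Without NWD2 replicate 2 only 2 of 10, Apoa1 and Apoc3, were positive and the median was -0.41, while without NWD2 replicate 1 the median was 0.69. The median was also 0.48 without NWD1 replicate 2 and 0.04, with 5 of 10 positive, without NWD1 replicate 3. The 3 comparisons share libraries and are not independent of each other. Of all genes tested, edgeR called 0 in each, with 500, 560 and 1154 at an unadjusted p under 0.05, DESeq2 called 1, 52 and 180 and limma voom 0. Neither DESeq2 nor limma voom called any of the 10 genes.

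Across the 7 libraries some of the 10 genes varied together, and the sets named here were picked by their r. How often pairs of other genes reach such r was not computed. These correlations are over log2 CPM of the same libraries, which the genes share, and are given as a description. Fabp1 and Rbp2 had Pearson r = 0.97 (Spearman rho 1, n = 7), Fabp2 and Rbp2 had r = 0.94 (rho 0.86) and Fabp1 and Fabp2 had r = 0.86 (rho 0.86). The CPM of Rbp2 stayed between 0.35 and 0.48 of that of Fabp1 in every library, although either gene ranged at least 2.49-fold. Apob and Mttp had r = 0.92 (rho 0.86). Apoa1 and Apoc3, neighbours on the chromosome, had r = 0.77, and Apoa1 had r = 0.13 with Fabp1 and -0.02 with Fabp2. Apoa4, the other neighbour of Apoc3, had r = 0.65 with Apoc3, 0.63 with Apoa1 and 0.81 with Apob. Without NWD2 replicate 2 these values of Apoa4 were 0.54, 0.14 and 0.58. Links also crossed the sets. Apoa4 had r = 0.77 with Rbp2, 0.75 with Fabp1 and 0.74 with Mttp, and Mttp had 0.62 with Rbp2 and 0.60 with Fabp2. Without NWD2 replicate 2 those were 0.57, 0.63, 0.33, 0.23 and 0.30. Dgat1 had negative r with the 8 genes other than Dgat2, from -0.71 with Apoa1 to -0.15 with Fabp2. Without NWD2 replicate 2 (n = 6) the values within the sets were 0.96 for Fabp1 with Rbp2, 0.91 for Fabp2 with Rbp2, 0.82 for Apob with Mttp and 0.75 for Apoa1 with Apoc3. Those of Dgat1 with Apoa1, Apob and Mttp were then -0.32, 0.59 and 0.53, so most of its negative values rested on that library. The values of Apoa1 with Fabp1 and Fabp2 also moved, to -0.50 and -0.86.

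**Figure D3:**
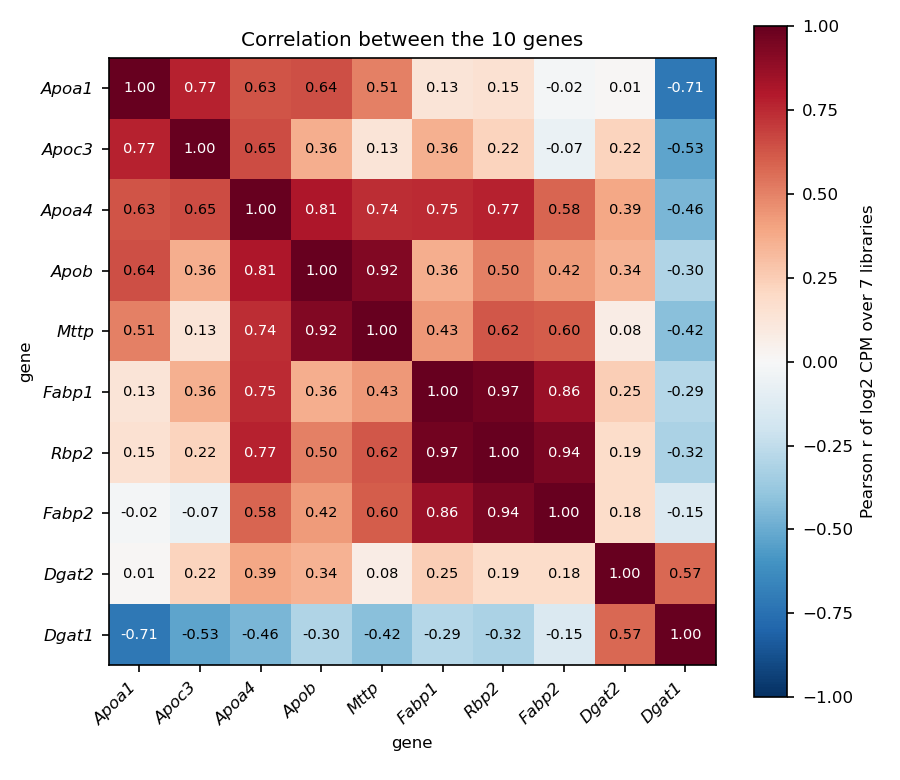
Pearson r of log2 CPM over the 7 libraries for each pair of the 10 genes, with genes on both axes and r as colour and number. Fabp1, Rbp2 and Fabp2 form a block with r from 0.86 to 0.97, Apob and Mttp have r = 0.92, and the row of Dgat1 is negative except with Dgat2 (0.57).

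Of 7570 other genes whose log2 CPM averaged 3 or more, the 5 most like the mean standardised profile of the 10 over the 7 libraries were Lipa, Ccdc114, Mfsd2a, Cidec and Cyp3a25, with r from 0.97 to 0.98. Lipa encodes the lysosomal acid lipase, Mfsd2a a lysophospholipid transporter and Cidec a lipid droplet protein. Ccdc114 had r = 0.98 with 7.58 to 36.6 CPM, and Cyp3a25 had r = 0.97 with 212 to 843 CPM. No common role is claimed for these 5 genes. Lipa had 88.3 and 134 CPM on AIN76A, 128, 248 and 126 CPM on NWD1, and 118 and 405 CPM on NWD2. Mfsd2a had 42.1 and 112 CPM on AIN76A, 87.9, 248 and 78.5 CPM on NWD1, and 72.5 and 254 CPM on NWD2. Both were thus highest in NWD2 replicate 2, followed by NWD1 replicate 2. Without NWD2 replicate 2, r was 0.97 for Lipa, 0.97 for Ccdc114, 0.98 for Mfsd2a, 0.95 for Cidec and 0.94 for Cyp3a25. The 5 genes were picked for the highest r over libraries that include these, so high values follow in part from that choice.

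NWD2 replicate 2 was highest in both these genes and the enterocyte markers, and the other 6 libraries were ordered differently by each. The mean log2 CPM of the 20 absorptive enterocyte markers was 9.28 to 9.83 in 6 libraries and 10.38 in NWD2 replicate 2, and the mean of the 10 genes was 11.06 to 11.97 in those 6 and 12.27 in that library. Among those 6, NWD1 replicate 3 had the highest marker mean (9.83) with the 10 genes at 11.40, and NWD1 replicate 2 the highest mean of the 10 genes (11.97) with the markers at 9.54. The difference between the means was 1.75 and 1.86 on AIN76A, 2.25, 2.42 and 1.58 on NWD1, and 1.65 and 1.89 on NWD2, so the diets overlapped. With NWD2 against AIN76A 17 of the 20 markers had positive log2 fold changes and 0 passed by edgeR, with a median of 0.51. Without NWD2 replicate 2 the count was 14 and the median 0.12. The sugar-handling genes Mgam (maltase-glucoamylase), Sis (sucrase-isomaltase) and Slc5a1 (the sodium-glucose transporter) had the smallest p of the markers in any comparison, and none passed. Their log2 fold changes for NWD2 against NWD1 were 1.03 (SE 0.34), 0.996 (SE 0.33) and 0.76 (SE 0.32), with edgeR adjusted p of 0.533, 0.533 and 0.613. In that comparison 17 of the 20 markers were positive, with a median of 0.46. Without NWD2 replicate 2 the count was 10 and the median -0.01. Fewer cells of a type and less RNA per cell cannot be told apart in bulk RNA, and the part of enterocyte content in the values above was not tested. Relative to the enterocyte markers Dgat1 was at -0.35 and -2.02 (log2) on NWD2, 0.46, -0.03 and -0.08 on NWD1, and -0.58 and -0.29 on AIN76A. Only NWD2 replicate 2 lay below the AIN76A range. Enteroendocrine markers summed to 1836 to 2285 CPM on AIN76A, 1731 to 2004 on NWD1 and 473 to 672 on NWD2, with 10 of 10 negative for NWD2 against NWD1. Paneth cell markers summed to 27276 to 40110, 14619 to 19967 and 10961 to 21576 CPM. Tuft cell markers summed to 192 to 359, 138 to 420.4 and 79.1 to 91.3 CPM and goblet cell markers to 8848 to 19019, 5293 to 8227 and 7914 to 9701 CPM. Fabp6, the ileal bile acid binding protein of the same family as Fabp1 and Fabp2, had 60.4 and 134 CPM on AIN76A, 202, 18.7 and 8.57 CPM on NWD1, and 31.7 and 38.4 CPM on NWD2. Its part in the results was not tested.

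**Figure D4:**
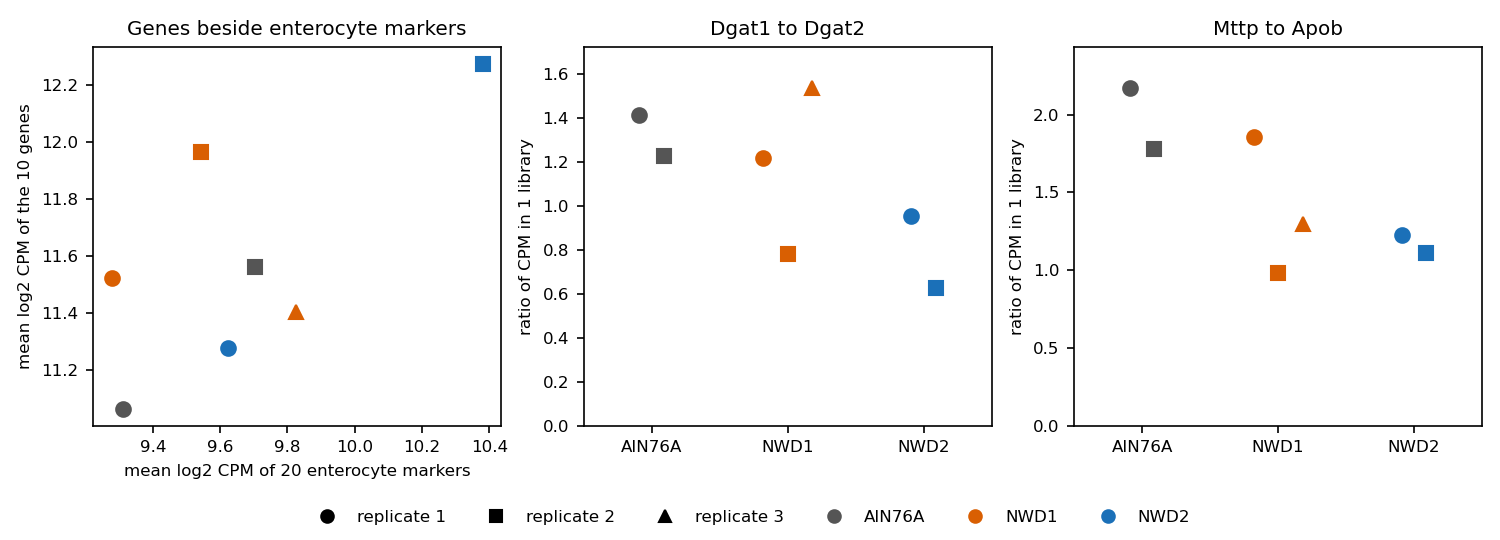
Left, mean log2 CPM of the 10 genes against mean log2 CPM of 20 enterocyte markers, a point per library (axes do not start at 0). Middle and right, ratio of CPM within a library for Dgat1 to Dgat2 and Mttp to Apob by diet. NWD2 replicate 2 is highest on both axes at left, and both NWD2 libraries lie below both AIN76A libraries in either ratio.

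Ratios within a library do not depend on scaling and are described here without a test, as the pairs were picked by role with their values known. Dgat1 to Dgat2 in CPM was 1.41 and 1.23 on AIN76A, 1.22, 0.78 and 1.54 on NWD1, and 0.95 and 0.63 on NWD2. Mttp to Apob was 2.17 and 1.78 on AIN76A, 1.86, 0.99 and 1.297 on NWD1, and 1.23 and 1.11 on NWD2. In both, NWD2 was below AIN76A without overlap, and NWD1 spread across or between them. Apoa1 to Fabp1 was 1.32 and 0.95 on AIN76A, 0.74, 0.97 and 1.65 on NWD1, and 2.72 and 1.41 on NWD2. Apoa4 to Apoa1, Rbp2 to Fabp1, Fabp2 to Fabp1 and Apoc3 to Apoa1 were also computed, and in each of these NWD2 overlapped AIN76A. Apoa4 to Apoa1, for example, was 0.41 and 0.82 on AIN76A and 0.36 and 0.99 on NWD2. How often ratios of other genes separate these diets was not computed.

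Further genes of the route were counted from lists made by role, and none of them passed the edgeR adjusted threshold in any comparison. Of 19 genes of lipid uptake and trafficking, 11 were positive with NWD1 and 11 with NWD2 against AIN76A, and 12 with NWD2 against NWD1, a count that was 7 without NWD2 replicate 2. Npc1l1, the cholesterol uptake transporter, had 488 and 676 CPM on AIN76A, 361, 790.3 and 763 CPM on NWD1, and 888 and 1383 CPM on NWD2. Both NWD2 libraries exceeded all others, with a log2 fold change of 0.96 (SE 0.44; edgeR adjusted p = 0.996) against AIN76A. Scarb1, a lipoprotein and carotenoid receptor, had 25.3 and 47.0 CPM on AIN76A, 65.2, 132 and 62.5 CPM on NWD1, and 37.4 and 125 CPM on NWD2. All NWD1 libraries were above AIN76A, with a log2 fold change of 1.26 (SE 0.55; edgeR adjusted p = 0.878). Lrat, which esterifies the retinol bound by Rbp2, had 37.7 and 38.4 CPM on AIN76A, 34.5, 50.1 and 52.6 CPM on NWD1, and 52.6 and 74.2 CPM on NWD2, again higher on NWD2 than on AIN76A without overlap. Npc1l1, Scarb1 and Lrat were named for the smallest p of this list in any comparison, so a difference follows in part from that choice. Against AIN76A, 13.2% of all genes were higher without overlap with NWD2 and 11.4% with NWD1. The share with both NWD2 libraries above all others was not computed.

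Of 18 genes of triglyceride resynthesis and lipid droplets, 13 were positive with NWD1 and 17 with NWD2 against AIN76A, and 15 with NWD2 against NWD1. Without AIN76A replicate 1 the first count was 8, and without NWD2 replicate 2 the others were 12 and 5. The 3 of smallest p were Agpat9 (now Gpat3), Cidec and Lpin3, enzymes and a droplet protein, with log2 fold changes of 0.66 (SE 0.38), 0.98 (SE 0.56) and 0.77 (SE 0.45) with NWD2 against AIN76A. Of 13 measured genes of chylomicron proteins, assembly and export, 8 were positive with NWD1 and 11 with NWD2 against AIN76A, and 12 with NWD2 against NWD1. The latter counts were 4 and 2 without NWD2 replicate 2. Mia2, which helps large cargo leave the endoplasmic reticulum, had 34.7 and 58.0 CPM on AIN76A, 43.6, 79.3 and 63.1 CPM on NWD1, and 43.7 and 155 CPM on NWD2. Sec24c, a coat protein of the export vesicles, had a log2 fold change of 0.67 (SE 0.45) with NWD2 against AIN76A, and Sar1b, the GTPase of that coat, one of 0.25 (SE 0.34).

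Of 18 transcription factor genes tied to lipid absorption, 11 were positive with NWD1 and 12 with NWD2 against AIN76A, and 11 with NWD2 against NWD1, the last being 4 without NWD2 replicate 2. Gata4, a factor of proximal small intestine, had 42.1 and 85.1 CPM on AIN76A, 112, 136 and 144 CPM on NWD1, and 81.2 and 29.2 CPM on NWD2. Every NWD1 library was above every other. The log2 fold changes of Gata4 were 1.04 (SE 0.46, edgeR adjusted p = 0.878) with NWD1 against AIN76A and -1.24 (SE 0.46, edgeR adjusted p = 0.548) with NWD2 against NWD1. Gata6 had 26.7 and 24.4 CPM on AIN76A, 38.9, 42.8 and 33.2 CPM on NWD1, and 25.4 and 21.9 CPM on NWD2, and Klf5, a crypt factor, had 58.6 and 137, then 196, 159 and 164, then 105 and 26.2 CPM. Both also had every NWD1 library above every other, and neither passed. Gata4, Gata6 and Klf5 were named for the smallest p of this list in any comparison, so a difference between diets follows in part from that choice. The share of all genes with every NWD1 library above every other was not computed.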

How the data were processed

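Per the labels' protocols, total RNA of the sorted cells went through a SMART-Seq v4 kit and a Nextera XT kit to give 7 paired-end libraries. That preparation does not mark strand, so antisense transcripts cannot be separated. Each Ensembl gene has whole-number counts as deposited, and the deposited TPM values sum to the same total in each column. Per the submitters' processing notes the tools were STAR 2.4.2a, HTSeq 0.6.1 and edgeR, and the build mm9; annotation, strand setting and gene lengths are not given in the sources used here. The TPM table has 1 column that matches no sample, which was not used.

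Counts were tested with the edgeR 4.0.16 quasi-likelihood F test (R 4.3.3, TMM, filterByExpr, robust, all 7 libraries, diet as the only term, 4 residual degrees of freedom), with Benjamini-Hochberg adjustment over 14626 genes and a threshold of 0.05. SEs are the log2 fold change divided by the root of F, and 95% intervals are for single genes, unadjusted. Library values are TMM-scaled CPM, log2 CPM having a prior count of 0.5. An exact permutation test cannot pass at these sample numbers and was not used. Of 169 list symbols 167 matched, 6 by a newer symbol. The 10 genes, lists and tests were chosen with earlier results of these data known. The rule named all 10 genes, in each other list the 3 with the smallest p in any comparison (average log2 CPM 1 or more; those of the route and enterocyte lists are printed), and the 5 genes closest in pattern. Alternatives used DESeq2 1.42.0, limma 3.58.1, other scalings, filters, covariates and subsets of libraries.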

Additional observations from a re-analysis of the deposited data

How the results depend on the processing

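In no setting other than edgeR without a filter, where Apob with NWD2 against AIN76A passed at 1.504, did any of the 10 genes pass. Genes called over all tested changed with the tool. In the order NWD1 against AIN76A, NWD2 against AIN76A and NWD2 against NWD1, edgeR called 0 in each, against 85, 190 and 384 with no filter and 1, 52 and 180 with DESeq2. The 2 settings of limma on log2(TPM + 1), with and without a filter, called 1, 0 and 1. An i5 index term called 0, 1 and 2, and using only the 2 diets compared called 0, 6 and 0. The adjusted threshold of 0.1 called 0 in each. Leaving out 1 library gave 0 to 1 calls with NWD2 against NWD1 and 0 in the others. Titles give diets the same replicate numbers. Deviations from diet means of same-numbered libraries correlated at 0.15 to 0.52 over 5000 genes, but each comparison holds only 2 such pairs and no label says what the number marks. In a diet of 2 libraries the deviations mirror each other, so both such pairs of AIN76A with NWD2 give the same 0.15. AIN76A replicate 2 and NWD1 replicate 3, of different number, correlated at 0.36. With the replicate block, 0, 1 and 0 genes were called and none of the 10.

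Signs changed for several values near 0 and other values moved in size, and the cause was not tested. Library size alone moved the median of all genes to 0.11, -0.15 and -0.19. It gave Fabp1 -0.062 and Fabp2 -0.021 with NWD2 against AIN76A, and Fabp2 -0.32 and Rbp2 -0.23 with NWD2 against NWD1. Limma voom gave Fabp2 -0.0056 with NWD2 against AIN76A, and Fabp2 -0.20 and Rbp2 -0.063 with NWD2 against NWD1. All 3 TPM settings, which lack NWD1 replicate 3, gave Fabp1 -0.013 and Fabp2 -0.031 with NWD2 against AIN76A. With NWD2 against NWD1 they gave Fabp2 -0.65, Rbp2 -0.56 and a median of the 10 genes of -0.26, and with NWD1 against AIN76A they gave a median of 0.64. The median with NWD2 against NWD1 was -0.025 with library size alone and -0.052 with the replicate block. With the replicate block Mttp was -0.074 with NWD1 against AIN76A, and Fabp2 -0.47 and Rbp2 -0.31 with NWD2 against NWD1. With an i5 index term Mttp was -0.17 with NWD1 against AIN76A, and Fabp1 0.66 and Dgat2 0.072 with NWD2 against NWD1. The index differs within a diet only in NWD1, where replicate 3 alone carried N504. The term thus rests on that library, the shallowest and of less certain diet. The same term, estimated within NWD1 alone, gave Apoa4 2.17, Apoc3 1.67, Fabp1 1.122, Fabp2 0.93, Rbp2 1.04, Mttp 0.22, Dgat2 1.002 and a median of 1.02 with NWD2 against AIN76A. With NWD2 against NWD1 it gave Apoa4 1.46, Apoc3 1.11 and a median of 0.61.

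Leaving out 1 library at a time gave these ranges. With NWD1 against AIN76A they were -0.069 to 0.21 for Apoa1, -0.22 to 0.85 for Apoa4, -0.24 to 0.74 for Apoc3, -0.38 to 0.59 for Mttp, -0.16 to 0.70 for Fabp2 and -0.070 to 0.40 for Rbp2. With NWD2 against AIN76A they were -0.086 to 1.70 for Apoa4, -0.41 to 1.33 for Mttp, -0.65 to 0.62 for Fabp1, -1.04 to 0.87 for Fabp2, -0.86 to 0.84 for Rbp2 and -0.79 to 0.17 for Dgat1. The median of the 10 was 0.041 to 0.86 and 5 to 10 were positive. With NWD2 against NWD1 they were -0.52 to 1.32 for Apoa4, -0.40 to 1.47 for Apob, -0.43 to 1.304 for Mttp, -0.85 to 0.42 for Fabp1, -1.25 to 0.67 for Fabp2 and -1.01 to 0.70 for Rbp2. The median was -0.41 to 0.69 and 2 to 8 were positive. A diet left with 1 library was assumed to vary like the others. Recounting positive genes was chosen after seeing the data.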
